A study of Saccharomyces cerevisiae EC1118 with 12 samples.

Results

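The genes described here are 53 yeast genes of amino acid biosynthesis, listed by symbol with earlier results of these data known. They make the enzymes of 9 groups of pathways: arginine (6 genes), histidine (7), the branched-chain amino acids (10), lysine (8), the aromatic amino acids (10), threonine (2), serine (4), asparagine (2) and proline (3), with GCN4 added. Not all are enzymes, since GCN4, LEU3 and LYS14 encode transcription activators. Of the 53, 52 were among the 5449 genes tested, and TRP1 was not analysed here. No tested member lay in the lowest 25% of genes by mean level, but LEU3 lay just above it, at 5.846 against a limit of 5.839. The LEU3 means at 1% and 5% oxygen, 5.45 and 5.48, were under that limit.

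Budding yeast can make every amino acid that it needs from ammonium and central carbon intermediates. Most of these pathways answer to general amino acid control, in which uncharged tRNA activates the kinase Gcn2, translation of GCN4 mRNA rises, and the Gcn4 protein switches on genes across many pathways at the same time. GCN4 is therefore controlled largely at translation, a step that an array of RNA does not measure. Single pathways have activators of their own as well: Leu3 responds to an intermediate of leucine synthesis and Lys14 to one of lysine synthesis. In wine making the branched-chain and aromatic pathways matter for flavour too, because their keto acids are precursors of higher alcohols.

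The RNA came from EC1118, a commercial Saccharomyces cerevisiae wine strain. It was grown in chemostats with nitrogen as the limiting nutrient, fed a synthetic must of pH 3.5 at 0.1 volumes per hour. The 4 groups of 3 Affymetrix arrays differed in the sparging gas, which was nitrogen alone (the anaerobic group) or held 1%, 5% or 20% oxygen. The labels give the dissolved oxygen of these groups in 2 conflicting series, 0, 1.2, 2.7 and 5 micromolar in the titles and 0, 0.8, 4 and 11 micromolar in the condition text, so groups are named by the gas, and the further 21 micromolar level that the design names was not analysed here. Whether the 3 arrays of 1 group stand for different chemostat runs is not stated in the labels, and the p-values therefore reflect spread among arrays that could be technical.

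Levels are deposited log2 values, on which a difference of 1 is 2-fold, and levels of different genes are not compared because each probe set hybridises with its own strength. Each difference carries the standard error of the limma fit after the ± sign, and a gene was called when its Benjamini-Hochberg adjusted p over all 5449 genes was under 0.05. "Rose" and "fell" are used only of called genes. The RNA is a population average, so fewer cells with a transcript and less of it per cell cannot be told apart. All 3 comparisons with the anaerobic group share the same 3 anaerobic arrays.

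One array stood apart before any comparison was made. Arrays correlated with the others of their group at 0.94 to 0.992, and the lowest value belonged to 1% oxygen array 3. In that array 41 of the 52 members lay below both other arrays of the group, and the median member lay 0.84 under its anaerobic mean, against 0.08 under it in array 1 and 0.17 in array 2. Anaerobic array 1 lay below both its partners in 40 of 52 members, and its median level over a list of 15 general stress genes was 9.91, against 8.38 and 8.71 in the other anaerobic arrays. The same list had a median level of 9.67 in 1% oxygen array 3, against 8.82 and 8.26 in its partners. Of the 15, HSP42 and GDB1 fell at each oxygen level and SSA4 at 5%, and of these calls only that of GDB1 at 5% oxygen held with each array left out in turn. The falls were 13.3%, 20% and 13.3% of the list at 1%, 5% and 20% oxygen, beside 11.2%, 11% and 4.64% of all genes. In the same order, 8, 5 and 2 of the 15 lay above the anaerobic mean. DDR2 was the highest each time, by 1.57 ± 0.75, 1.79 ± 0.75 and 1.01 ± 0.75 (not called). Of 14 genes of haploid mating, which a diploid keeps off, 12 were dim, yet the median level of the list was 3.07 to 3.87 over the anaerobic arrays, 3.36 to 4.19 at 1% oxygen, 3.92 to 4.11 at 5% and 4.01 to 4.18 at 20%. The alpha-factor gene MF(ALPHA)1 rose by 2.34 ± 0.46 at 5% oxygen and 3.95 ± 0.46 at 20% (adjusted p = 0.00690 and 0.000542, limma). The pheromone receptor gene STE2 rose by 0.85 ± 0.24, 1.11 ± 0.24 and 1.03 ± 0.24 at 1%, 5% and 20% oxygen, and the receptor gene STE3 by 1.49 ± 0.38 at 5%. Of these mating gene calls, both of MF(ALPHA)1 and that of STE2 at 5% oxygen held with each array left out. The rises were 7.14%, 21.4% and 14.3% of the list at 1%, 5% and 20% oxygen, beside 5.27%, 5.32% and 3.27% of all genes. Below the anaerobic mean lay 6, 3 and 0 of the 14, none of them called. The lowest were AGA2 at 1% oxygen (-0.57 ± 0.31) and FUS3 at 5% (-0.66 ± 0.25). What part these features had in the results on amino acid genes was not tested.

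The called members of arginine and histidine synthesis rose, and those of the other pathways fell. At 1% oxygen, no member rose and 6 fell: LEU3, ILV3, ILV5, LYS4, ARO1 and ARO2. At 5% oxygen ARG7, ARG8 and HIS2 rose while LEU3, ARO2 and THR1 fell. At 20% oxygen only ARG4, ARG7 and ARG8 were called among the members, and all 3 rose. In all, 11 of 52 members were called in at least 1 test, and ARG7, ARG8, LEU3 and ARO2 were called in 2 comparisons with the anaerobic group. This pooled count has no share of all genes beside it and is not a result about the list. By comparison, 11.5%, 11.5% and 5.77% of members were called at 1%, 5% and 20% oxygen. Of all genes, 16.4%, 16.3% and 7.91% were called.

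The shares of members called were near the background for falls at 1% oxygen and rises at 5%. At 1% oxygen, the 6 falls were 11.5% of the members, and 11.2% of all genes fell, while 5.27% of all genes rose and no member did. At 5% oxygen, 5.77% of members rose and 5.77% fell, against 5.32% and 11% of all genes. At 20% oxygen, 5.77% of members rose and none fell, against 3.27% and 4.64% of all genes. The F test for any difference between the 4 levels called 2 members, ARG7 and ARG8, which is 3.85% against 10.1% of all genes. With quantile scaling of the arrays, the split of all called genes moved to 467 higher and 480 lower at 1% oxygen, from 287 and 608, and to 454 and 560 at 5%, from 290 and 599.

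The median difference over the 52 members was -0.35 at 1% oxygen, 0.01 at 5% and 0.14 at 20%, beside medians of 0.00, 0.07 and 0.05 over all genes. At 1% oxygen 34 of 52 members lay below the anaerobic mean, beside 2724 of all 5449 genes. At 20% oxygen 33 of 52 lay above it, beside 2966 of all genes. The 1% median rested largely on array 3 of that group, since it was -0.12 without that array. No member was then called, beside 5.91% of all genes. The 5% median was -0.04 with quantile scaling, and -0.07 without anaerobic array 1 or without 5% array 1, so its sign is not settled.

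**Figure D1:**
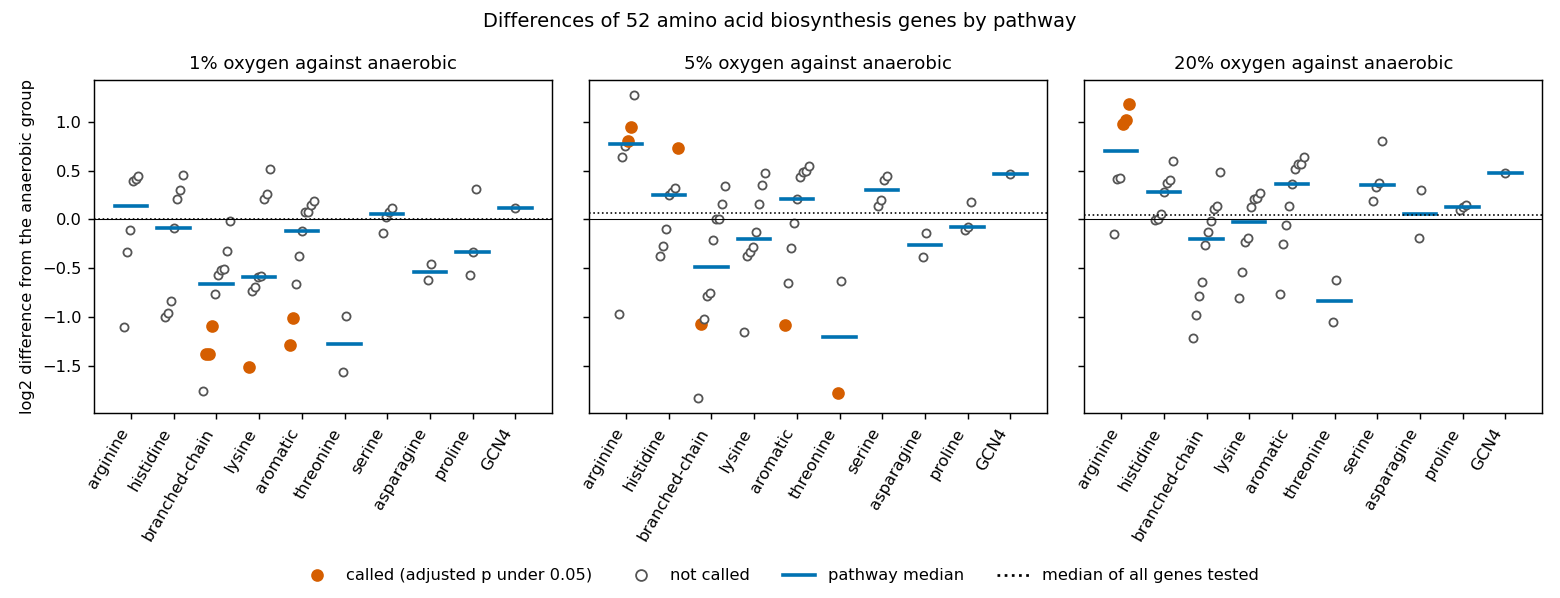
Log2 difference of each of 52 amino acid biosynthesis genes from the anaerobic group (vertical axis), by pathway (horizontal axis), in 3 panels for 1%, 5% and 20% oxygen; filled points are called genes, open points are not, bars are pathway medians and the dotted line is the median of all 5449 genes. The arginine median lies at 0.14 (-0.16 to 0.41 with 1 array left out), 0.78 and 0.70 in the 3 panels, and the branched-chain median at -0.66, -0.49 and -0.20.

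Among the members, arginine synthesis held the only rises that were called at 20% oxygen. Yeast first builds ornithine on an acetylated intermediate in the mitochondrion, and converts it to citrulline and then arginine in the cytosol. Of the 6 members, 5 lay above the anaerobic mean at both 5% and 20% oxygen, and ARG1 lay below it. Of all 5449 genes, 3044 and 2966 lay above it. The median difference was 0.14 at 1% oxygen, 0.78 at 5% and 0.70 at 20%. The first of these was 0.41 without 1% oxygen array 3 and -0.16 without 1% array 2, so its sign is not settled. The last was 0.58 without 20% array 1 and 1.10 without 20% array 3. At 20% oxygen 3 of the 6 rose, at 5% oxygen 2 did, and none did at 1%. Of all genes, 3.27%, 5.32% and 5.27% rose at 20%, 5% and 1% oxygen.

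ARG8 encodes acetylornithine aminotransferase, a mitochondrial enzyme of the ornithine branch. It read 6.46, 6.99 and 6.57 in the anaerobic arrays, 7.02, 7.05 and 7.28 at 1% oxygen, 7.45, 7.33 and 8.09 at 5%, and 8.12, 8.05 and 7.40 at 20%. Each anaerobic array lay below each array with oxygen, and each 1% array lay below each 5% array. The difference from the anaerobic group was 0.44 ± 0.26 at 1% oxygen (not called), 0.95 ± 0.26 at 5% (adjusted p = 0.0287, limma) and 1.18 ± 0.26 at 20%, which is 2.27-fold (adjusted p = 0.0182, limma).

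ARG7 encodes the mitochondrial ornithine acetyltransferase, which frees ornithine and recycles the acetyl group. Its levels were 7.79, 8.09 and 7.83 without oxygen, 8.53, 8.14 and 8.23 at 1% oxygen, 8.82, 8.62 and 8.69 at 5%, and 9.39, 8.67 and 8.58 at 20%. The anaerobic arrays again lay below all others, and array 1 of the 20% group was the highest of the 12. ARG7 rose by 0.81 ± 0.23 at 5% oxygen (adjusted p = 0.0312, limma) and by 0.97 ± 0.23 at 20%, or 1.96-fold (adjusted p = 0.0244, limma). In the F test over the 4 levels, the adjusted p was 0.0372 for ARG8 and 0.0479 for ARG7.

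ARG4 encodes argininosuccinate lyase, the last step to arginine. Its arrays read 9.67, 10.01 and 9.94 without oxygen, 10.54, 10.54 and 9.80 at 1% oxygen, 10.98, 10.67 and 10.22 at 5%, and 11.07, 10.83 and 10.79 at 20%. The 20% arrays lay above every anaerobic and every 1% array, and the third 1% array lay among the anaerobic ones. It rose by 1.02 ± 0.25 at 20% oxygen (adjusted p = 0.0295, limma), and at 5% oxygen the difference of 0.75 ± 0.25 missed the threshold (adjusted p = 0.0623).

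The other 3 arginine genes varied far more between arrays of a group. ARG3, for ornithine carbamoyltransferase, had the largest spread of all members, with a pooled within-group SD of 1.09, and read 7.92, 6.87 and 8.89 at 5% oxygen and 8.04, 7.43 and 5.63 at 20%. ARG1, for argininosuccinate synthetase, had an SD of 0.854 and differed by -1.10 ± 0.58, -0.97 ± 0.58 and -0.15 ± 0.58 at 1%, 5% and 20% oxygen. For CPA1, the small subunit of the arginine-specific carbamoyl phosphate synthetase, 1% oxygen array 3 read 7.57 and the other 11 arrays 9.17 to 10.20. None of the 3 was called in any test.

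Neighbouring steps of arginine synthesis outside the 53 genes showed values of the same kind. ORT1, the mitochondrial carrier that exports ornithine, read 6.59, 6.95 and 6.92 without oxygen and between 7.34 and 8.27 in the 9 arrays with oxygen, with no overlap. It rose by 0.84 ± 0.24 at 1% oxygen, 0.80 ± 0.24 at 5% and 0.97 ± 0.24 at 20% (adjusted p = 0.0362, 0.0406 and 0.0294, limma). ARG2, the acetylglutamate synthase that opens the ornithine branch, rose by 0.85 ± 0.23 at 5% oxygen (adjusted p = 0.0255, limma). Its arrays read 5.99, 6.23 and 6.16 without oxygen and 6.84, 6.84 and 7.24 at 5%.

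None of these calls held with each array left out in turn. The 20% calls were lost without anaerobic array 1 or 3 and, for ARG4 and ARG7, without anaerobic array 2. ARG8 was also lost without 20% array 2, and ARG4 without any one of the 20% arrays. The highest adjusted p was 0.0955 for ARG4, 0.0894 for ARG7 and 0.0767 for ARG8. The differences at 20% oxygen ranged over these fits from 0.92 to 1.09 for ARG4, from 0.72 to 1.12 for ARG7 and from 1.05 to 1.41 for ARG8. At 5% oxygen, ARG7 was lost without any one anaerobic or 5% array (adjusted p up to 0.104), and ARG8 without array 1 or 3 of either group (up to 0.0931). In the F test, both calls were lost without any one anaerobic array, 1% array 2, 5% array 1 or 2, or 20% array 2, ARG7 also without 5% array 3, and ARG8 also without array 1 of the 1% or 20% group (up to 0.169 for ARG7 and 0.137 for ARG8). The calls of ORT1 reached an adjusted p of 0.106, 0.136 and 0.0985 at 1%, 5% and 20% oxygen, and that of ARG2 reached 0.0817. Each was lost without any one anaerobic array, and ORT1 also without 1% array 1 or 3 in the first comparison, 1% array 1 or any 5% array in the second, and 20% array 1 or 2 in the third. ARG2 was lost without any 5% array.

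**Figure D2:**
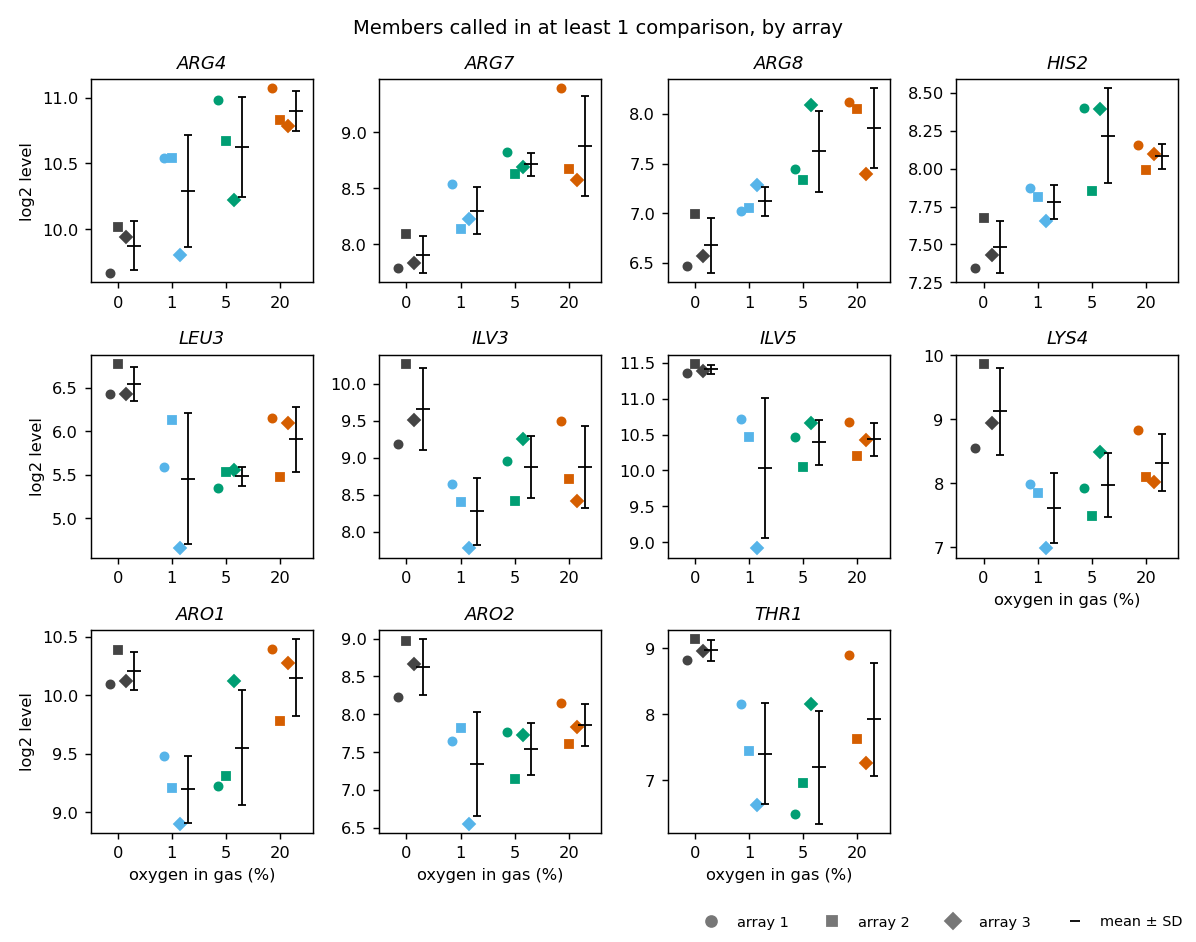
Log2 level (vertical axes, each with its own scale) in the 12 arrays for the 11 members called in at least 1 test, against the oxygen in the sparging gas in percent (horizontal axes, groups spaced evenly); the symbol gives the array number and the bars mean ± SD of 3 arrays. ARG4, ARG7, ARG8 and HIS2 lie lowest in the anaerobic group by mean, and the other 7 lie highest there.

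The branched-chain pathway differed in the other direction. Valine, isoleucine and leucine share mitochondrial enzymes encoded by ILV2, ILV6, ILV5 and ILV3, and leucine then needs LEU4 or LEU9, LEU1 and LEU2. At 1% oxygen 10 of 10 members lay below the anaerobic mean, beside 2724 of all 5449 genes. Of the 10, 3 fell, which is 30% beside 11.2% of all genes, and the median difference was -0.66. The median was -0.49 at 5% oxygen, where LEU3 fell, and -0.20 at 20%, where no member was called. The fall of LEU3 at 5% oxygen was 10% of the members of this pathway, beside 11% of all genes. Without 1% oxygen array 3 the median at 1% was -0.48. Without anaerobic array 2 the medians at 5% and 20% were -0.22 and -0.03, and without anaerobic array 1 that at 20% was -0.35.

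ILV5 encodes acetohydroxyacid reductoisomerase, the second enzyme shared by the 3 amino acids. It read 11.36, 11.49 and 11.38 without oxygen, 10.71, 10.47 and 8.91 at 1% oxygen, 10.46, 10.05 and 10.65 at 5%, and 10.67, 10.20 and 10.43 at 20%. The anaerobic arrays lay above all 9 others, and 1% array 3 was the lowest of the 12. ILV5 fell by 1.38 on the log2 scale at 1% oxygen (SE 0.38, adjusted p = 0.0322, limma), a 2.60-fold difference. At 5% and 20% oxygen the differences of -1.02 ± 0.38 and -0.98 ± 0.38 were not called (adjusted p = 0.0846 and 0.130), although the arrays did not overlap.

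ILV3 encodes dihydroxyacid dehydratase, an iron-sulfur enzyme that acts next. Its anaerobic arrays were 9.19, 10.27 and 9.51, those at 1% oxygen 8.65, 8.40 and 7.78, at 5% 8.95, 8.42 and 9.25, and at 20% 9.49, 8.72 and 8.42. The 1% arrays lay below all anaerobic arrays, and at 5% and 20% the groups overlapped. The fall at 1% oxygen was -1.38 ± 0.36 (adjusted p = 0.0284, limma).

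LEU3, the activator of leucine synthesis genes, fell at both 1% and 5% oxygen. Its levels were 6.43, 6.77 and 6.42 without oxygen, 5.58, 6.13 and 4.65 at 1% oxygen, 5.35, 5.53 and 5.56 at 5%, and 6.15, 5.48 and 6.09 at 20%. Every array with oxygen lay below every anaerobic array. The difference was -1.09 ± 0.32 at 1% oxygen (adjusted p = 0.0402, limma), -1.06 ± 0.32 at 5% (adjusted p = 0.0417, limma) and -0.64 ± 0.32 at 20% (adjusted p = 0.244, limma). With quantile scaling neither LEU3 call was kept.

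ILV6, the regulatory subunit of acetolactate synthase, had the lowest difference of all 52 members in each comparison with the anaerobic group. It read 9.45, 10.04 and 9.61 without oxygen, 8.61, 8.18 and 7.05 at 1% oxygen, 7.05, 7.45 and 9.10 at 5%, and 9.91, 8.25 and 7.28 at 20%. The spread within the groups with oxygen was wide (pooled SD 0.961), and the differences of -1.75 ± 0.65, -1.83 ± 0.65 and -1.22 ± 0.65 were not called (adjusted p = 0.0825, 0.0760 and 0.275). ILV2, the catalytic subunit of the same enzyme, differed by -0.32 ± 0.31 at 1% oxygen, 0.00 ± 0.31 at 5% and 0.14 ± 0.31 at 20%.

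LEU4 and LEU9 encode 2 forms of alpha-isopropylmalate synthase, the first step that belongs to leucine alone. LEU4 differed from the anaerobic group by -0.76 ± 0.30, -0.76 ± 0.30 and -0.13 ± 0.30 at 1%, 5% and 20% oxygen, and LEU9 by -0.51 ± 0.30, 0.16 ± 0.30 and 0.48 ± 0.30. None of these was called, and the difference between the isozymes was not tested. LEU2, for beta-isopropylmalate dehydrogenase, lay nearest to its anaerobic level at 1% oxygen, with a difference of -0.02 ± 0.21. ILV1, the threonine deaminase of the isoleucine branch, and LEU1, the iron-sulfur enzyme isopropylmalate isomerase, differed by -0.57 ± 0.32 and -0.51 ± 0.26 at 1% oxygen and were not called.

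Outside the list, BAT1, the mitochondrial branched-chain aminotransferase, fell at 1% oxygen. It read 10.69, 10.84 and 10.79 without oxygen and 9.98, 9.73 and 8.30 at 1% oxygen, with no overlap. The difference was -1.44 ± 0.44 (adjusted p = 0.0463, limma), and 8 of the 12 fits with 1 array left out lost it, namely those without any anaerobic or 5% array, 1% array 3 or 20% array 3 (adjusted p up to 0.142).

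The 1% calls in this pathway were lost without single arrays, in fits that also called fewer of all genes. Of all genes, 16.4% were called at 1% oxygen with all 12 arrays. Without anaerobic array 2, anaerobic array 3 or 1% array 3, the shares were 0.661%, 3.16% and 5.91%. LEU3, ILV3 and ILV5 were each lost without anaerobic array 2 or 3 or 1% array 3, and LEU3 and ILV5 also without anaerobic array 1. LEU3 was lost without 1% array 1, 5% array 1 or 5% array 2 as well. Without 1% array 3 the difference of ILV5 was -0.82 and that of LEU3 -0.69 (adjusted p = 0.0519 and 0.110), and over all 12 such fits the adjusted p reached 0.112 for ILV5, 0.122 for ILV3 and 0.146 for LEU3. The 5% call of LEU3 was lost without any anaerobic or 5% array, 1% array 1 or 20% array 3 (up to 0.148).

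Lysine synthesis runs through alpha-aminoadipate in yeast. At 1% oxygen 5 of its 8 members lay below the anaerobic mean, beside 2724 of all 5449 genes, and 1 fell. That is 12.5%, near the 11.2% of all genes that fell. The median difference was -0.59 at 1% oxygen, -0.20 at 5% and -0.03 at 20%. With 1 array left out these ranged from -0.71 (1% array 1) to -0.42 (1% array 3), from -0.25 (5% array 3) to -0.10 (5% array 2), and from -0.12 (anaerobic array 1) to 0.04 (anaerobic array 2). LYS4, the iron-sulfur enzyme homoaconitase, read 8.55, 9.86 and 8.94 without oxygen, 7.99, 7.85 and 6.98 at 1% oxygen, 7.93, 7.49 and 8.49 at 5%, and 8.83, 8.10 and 8.02 at 20%. The groups at 1% and 5% oxygen lay wholly below the anaerobic arrays, and at 20% they overlapped. LYS4 fell by 1.51 on the log2 scale at 1% oxygen (SE 0.39, adjusted p = 0.0277, limma), and the call was lost without anaerobic array 2 or 3 or 1% array 3 (up to 0.118). At 5% oxygen the difference was -1.15 ± 0.39 (adjusted p = 0.0657, limma).

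LYS20 and LYS21 encode the 2 homocitrate synthases that open the pathway. LYS20 read 10.41, 9.79 and 10.36 without oxygen and 9.55, 9.68 and 9.26 at 1% oxygen, and LYS21 read 9.58, 9.96 and 9.88 and then 9.59, 9.18 and 8.88. The LYS20 arrays did not overlap at 1% oxygen and those of LYS21 did. Their differences were -0.69 ± 0.22 and -0.59 ± 0.20, just outside the threshold (adjusted p = 0.0521 and 0.0635, limma).

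LYS9 and LYS12 lay on the other side of the anaerobic level. LYS9, which makes saccharopine, had the highest difference of all members at 1% oxygen, 0.52 ± 0.17, with an adjusted p of 0.0560 (limma). Its anaerobic arrays read 11.07, 11.04 and 11.12, those at 1% oxygen 11.53, 11.43 and 11.83, and those at 5% 11.59, 11.50 and 11.57. The anaerobic arrays lay below all those at 1% and 5% oxygen, and LYS9 had the smallest within-group spread of the members (pooled SD 0.132). It was called at 1% and 5% oxygen under quantile scaling or with a trended prior variance.

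LYS12, for homoisocitrate dehydrogenase, differed by 0.26 ± 0.17, 0.36 ± 0.17 and 0.22 ± 0.17 at the 3 oxygen levels. LYS14, the pathway's activator, read 7.58, 7.55 and 7.57 without oxygen, 7.56, 8.35 and 7.43 at 1% oxygen, 7.90, 7.67 and 7.61 at 5%, and 7.61, 7.71 and 8.18 at 20%. The anaerobic arrays of LYS14 were nearly equal. Every 5% and 20% array lay above them, and at 1% oxygen only array 2 did. Its differences of 0.21 ± 0.25, 0.16 ± 0.25 and 0.27 ± 0.25 were not called. LYS1 and LYS2, for the last step and for aminoadipate reductase, differed by -0.74 ± 0.33 and -0.58 ± 0.23 at 1% oxygen and were not called.

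Both called genes of the aromatic pathway belong to its shared trunk. ARO3 and ARO4 encode the entry enzymes, ARO1 and ARO2 the trunk that leads to chorismate, ARO7 the branch to phenylalanine and tyrosine, and the TRP genes the branch to tryptophan. ARO1 and ARO2 fell at 1% oxygen and ARO2 also at 5%, while the other 7 tested members were called in no comparison. The falls were 22.2% of the 9 tested members at 1% oxygen and 11.1% at 5%, beside 11.2% and 11% of all genes. The median difference over the 9 was -0.12 at 1% oxygen, 0.21 at 5% and 0.36 at 20%, and the 1% value ranged from -0.21 without anaerobic array 1 to 0.02 without anaerobic array 2. The 5% value ranged from 0.05 without anaerobic array 1 to 0.41 without anaerobic array 2, and the 20% value was 0.15 without 20% array 1.

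ARO2, for chorismate synthase, read 8.23, 8.97 and 8.67 without oxygen, 7.65, 7.82 and 6.55 at 1% oxygen, 7.76, 7.15 and 7.72 at 5%, and 8.15, 7.60 and 7.83 at 20%. Every array with oxygen lay below every anaerobic array. ARO2 differed by -1.28 ± 0.33 at 1% oxygen (adjusted p = 0.0272, limma), -1.08 ± 0.33 at 5% (adjusted p = 0.0436, limma) and -0.76 ± 0.33 at 20% (adjusted p = 0.174, limma).

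ARO1 encodes a single protein with 5 enzyme activities of the trunk. Its arrays read 10.10, 10.39 and 10.12 without oxygen, 9.48, 9.21 and 8.90 at 1% oxygen, 9.23, 9.31 and 10.12 at 5%, and 10.40, 9.78 and 10.28 at 20%. The 1% arrays lay below the anaerobic ones, the third 5% array lay with them, and the 20% arrays spanned them. The fall at 1% oxygen was -1.01 ± 0.27 (adjusted p = 0.0302, limma), and at 20% oxygen the difference was -0.05 ± 0.27.

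The entry and tryptophan genes lay above the anaerobic mean at 20% oxygen except for TRP3. ARO4 differed by 0.14 ± 0.20, 0.49 ± 0.20 and 0.57 ± 0.20 at 1%, 5% and 20% oxygen, with no overlap of arrays at 5% or 20% (adjusted p = 0.110 and 0.0975, limma). ARO3 differed by 0.57 ± 0.22 at 20% oxygen, TRP2, for anthranilate synthase, by 0.52 ± 0.22 and TRP4, for the next enzyme of the branch, by 0.64 ± 0.31. TRP5, the tryptophan synthase, and TRP3, a bifunctional enzyme of the branch, differed by 0.13 ± 0.27 and -0.25 ± 0.27. None of these 6 was called.

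The aromatic calls were lost without single arrays too. At 1% oxygen both were lost without anaerobic array 2 or 3 or 1% array 3, and ARO1 also without anaerobic array 1 (adjusted p up to 0.119 for ARO1 and 0.114 for ARO2). At 5% oxygen ARO2 was lost without anaerobic array 2 or 3, 1% array 1, any 5% array, or 20% array 2 or 3 (up to 0.165).

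Histidine synthesis had 1 called gene among 7 members, at 5% oxygen, which is 14.3% beside the 5.32% of all genes that rose. HIS2, for histidinol phosphatase, read 7.34, 7.67 and 7.43 without oxygen, 7.87, 7.82 and 7.65 at 1% oxygen, 8.40, 7.85 and 8.39 at 5%, and 8.15, 7.99 and 8.10 at 20%. Its 5% and 20% arrays lay above every anaerobic array, and 1 of the 1% arrays overlapped with them. HIS2 rose by 0.73 ± 0.19 at 5% oxygen (adjusted p = 0.0240, limma), and at 20% the difference of 0.60 ± 0.19 was not called (adjusted p = 0.0792). The call was lost without array 1 or 3 of the anaerobic or of the 5% group (up to 0.0940).

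The pathway's median difference was -0.09 at 1% oxygen, 0.25 at 5% and 0.28 at 20%, and the first of these ranged from -0.28 without 1% oxygen array 1 to 0.14 without 1% array 3. Without anaerobic array 1 the other medians were 0.11 and 0.15. HIS4, a protein with several activities of the pathway, read 10.15, 10.40 and 10.23 without oxygen and 9.82, 9.52 and 8.56 at 1% oxygen, a difference of -0.96 ± 0.33 (adjusted p = 0.0624, limma). HIS7, for imidazole glycerol phosphate synthase, differed by -0.998 ± 0.39 there, with array 3 at 6.09 and its partners at 7.92 and 7.76. HIS6, the isomerase of the pathway, had the highest difference at 1% oxygen, 0.45 ± 0.22. HIS1, the first enzyme, differed by -0.09 ± 0.23, 0.25 ± 0.23 and 0.28 ± 0.23 at the 3 oxygen levels. None of these 4 was called.

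Both threonine genes lay below the anaerobic mean at each oxygen level. THR1, for homoserine kinase, read 8.82, 9.14 and 8.96 without oxygen, 8.16, 7.44 and 6.62 at 1% oxygen, 6.49, 6.96 and 8.15 at 5%, and 8.89, 7.63 and 7.26 at 20%. The 1% and 5% arrays lay below the anaerobic ones, and 20% array 1 lay among them. THR1 fell by 1.77 on the log2 scale at 5% oxygen (SE 0.50, adjusted p = 0.0312, limma), which is 3.42-fold. At 1% oxygen the difference was -1.57 ± 0.50 (adjusted p = 0.0516, limma) and at 20% it was -1.05 ± 0.50 (adjusted p = 0.219, limma). The 5% call was lost without any anaerobic array or 5% array 1 or 2 (up to 0.123). THR1 is 1 of only 2 members of this pathway, so its fall was 50% of them, beside 11% of all genes.

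THR4, for threonine synthase, read 9.65, 9.78 and 9.70 without oxygen, 9.09, 9.12 and 7.97 at 1% oxygen, 9.24, 8.71 and 9.30 at 5%, and 9.69, 8.79 and 8.79 at 20%. Its 1% and 5% arrays lay below all anaerobic ones and again 20% array 1 did not. The differences of -0.98 ± 0.33, -0.63 ± 0.33 and -0.62 ± 0.33 were not called (adjusted p = 0.0597, 0.211 and 0.272, limma).

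No gene of serine, asparagine or proline synthesis was called in any test. In serine synthesis from phosphoglycerate, SER3 and SER33 encode the 2 forms of the first enzyme. SER3 differed by 0.03 ± 0.22, 0.20 ± 0.22 and 0.33 ± 0.22 at 1%, 5% and 20% oxygen. SER33 differed by 0.11 ± 0.31, 0.40 ± 0.31 and 0.80 ± 0.31, and its 20% arrays read 10.76, 10.36 and 11.69, so that 1 array set much of the last value. SER2, for the phosphatase of the last step, differed by 0.08 ± 0.29, 0.45 ± 0.29 and 0.37 ± 0.29.

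ASN1 and ASN2 encode the 2 asparagine synthetases, and both lay below the anaerobic arrays without overlap at 1% oxygen. ASN1 read 10.43, 10.61 and 10.95 without oxygen and 10.37, 10.10 and 9.66 at 1% oxygen, and ASN2 read 8.88, 8.73 and 9.07 and then 8.57, 8.59 and 8.14. The differences were -0.62 ± 0.25 and -0.46 ± 0.23 (adjusted p = 0.102 and 0.167, limma), and at 20% oxygen they were -0.19 ± 0.25 and 0.30 ± 0.23.

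In proline synthesis from glutamate, PRO1, PRO2 and PRO3 encode the successive enzymes. At 1% oxygen they differed by 0.31 ± 0.20, -0.57 ± 0.23 and -0.33 ± 0.22 from the anaerobic group, and at 20% oxygen by 0.15 ± 0.20, 0.10 ± 0.23 and 0.12 ± 0.22. PRO2 had the smallest p of the 3 at 1% oxygen (adjusted p = 0.0969, limma).

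**Figure D3:**
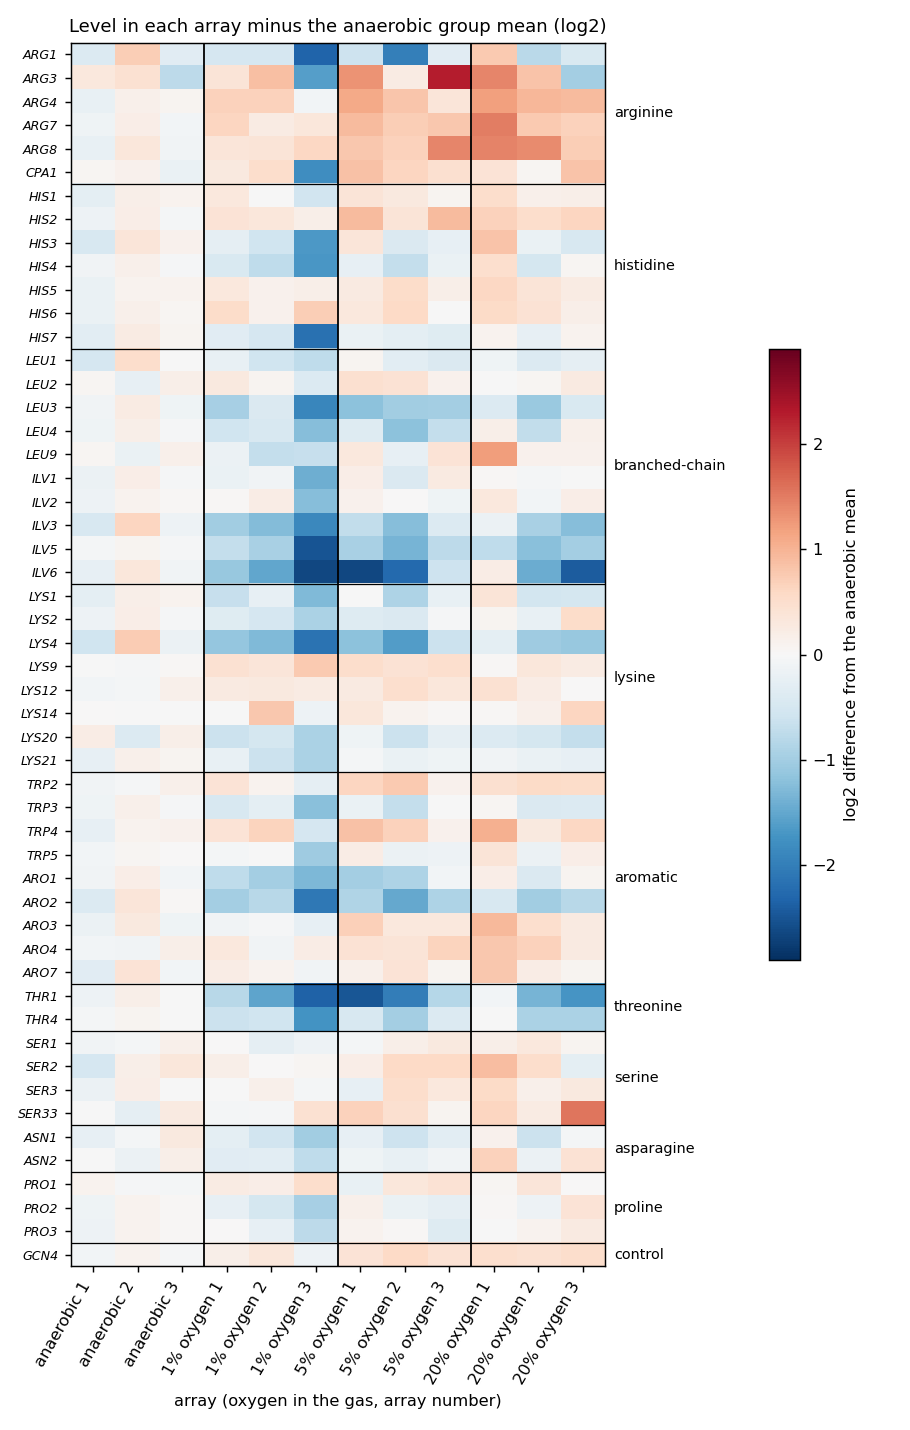
Log2 level of each of the 52 members in each of the 12 arrays minus that gene's anaerobic mean, with genes in rows by pathway and arrays in columns by group; red is above and blue below the anaerobic mean. The column of 1% oxygen array 3 is the bluest (median -0.84), and in the ARG4, ARG7 and ARG8 rows nearly all cells with oxygen are red.

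GCN4 itself read 11.71, 11.90 and 11.76 without oxygen, 11.95, 12.12 and 11.64 at 1% oxygen, 12.18, 12.37 and 12.22 at 5%, and 12.27, 12.23 and 12.31 at 20%. Its 5% and 20% arrays lay above every anaerobic and every 1% array, and 1% array 3 was the lowest of the 12. The differences of 0.12 ± 0.17, 0.46 ± 0.17 and 0.48 ± 0.17 were not called (adjusted p = 0.657, 0.0860 and 0.110, limma). GCN4 was called at 5% oxygen in a fit of only those 2 groups, with a trended prior variance, or without 1% array 3, and at 20% oxygen with the trended prior.

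**Figure D4:**
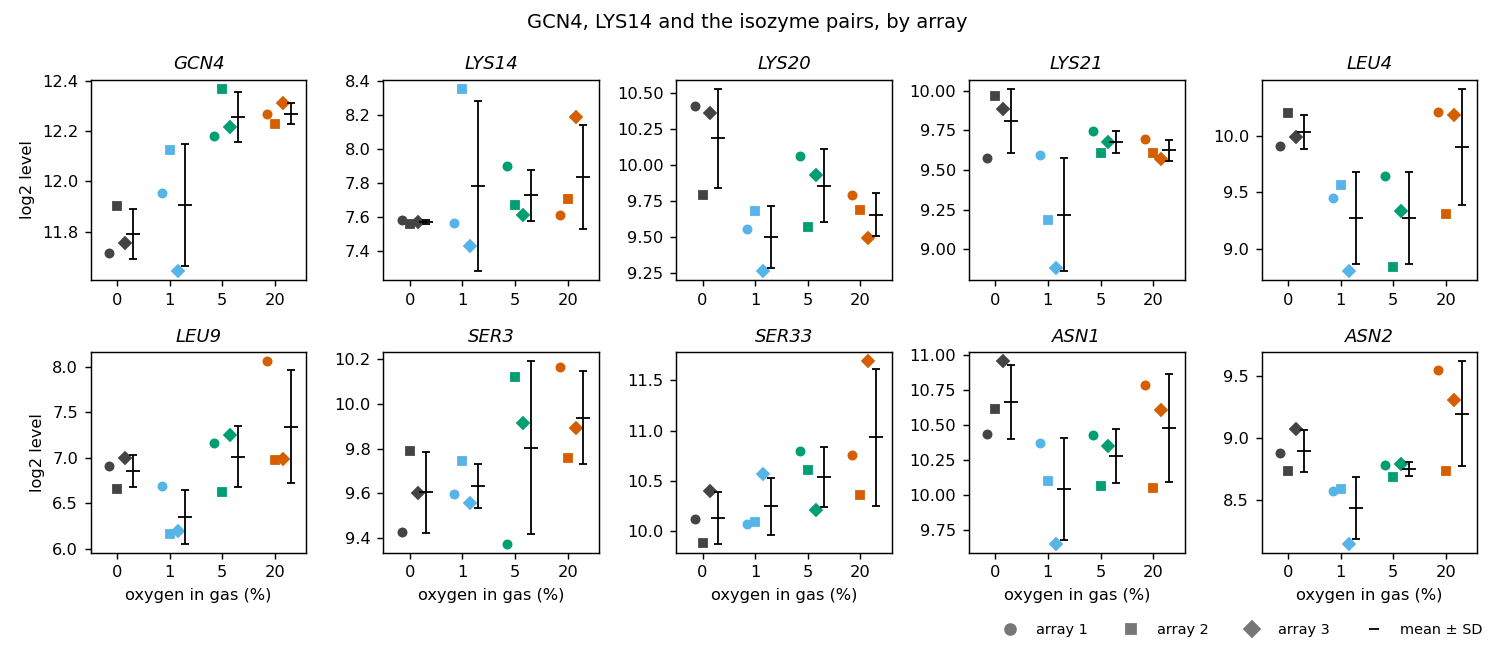
Log2 level (vertical axes, each with its own scale) of the activator genes GCN4 and LYS14 and of 4 isozyme pairs in the 12 arrays, against the oxygen in the sparging gas in percent (horizontal axes, groups spaced evenly), with array numbers as symbols and mean ± SD of 3 arrays as bars. GCN4 lies at 12.18 to 12.37 in the 6 arrays at 5% and 20% oxygen, above its 3 anaerobic arrays, and none of these 10 genes was called in any comparison of the fit to all 12 arrays.

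Of 17 further genes that control these pathways, 2 fell at 1% oxygen, the same number fell at 5%, and 1 rose at 20%. The falls were 11.8% of the list at each level, near the 11.2% and 11% of all genes that fell, and the rise was 5.88% beside 3.27%. ARG80, an activator and repressor of arginine genes, and ARG82, a kinase that works with it, had the extreme differences at 1% oxygen, -1.34 ± 0.44 and 0.42 ± 0.30, and were not called. The median differences of the list were -0.15, 0.09 and 0.19. BAS1, an activator of histidine and purine synthesis genes, read 7.49, 7.61 and 7.14 without oxygen, 6.33, 6.73 and 5.51 at 1% oxygen, 5.95, 6.15 and 6.58 at 5%, and 6.73, 6.35 and 6.61 at 20%. All its anaerobic arrays lay above the 9 others. It fell at 1% and 5% oxygen, with differences of -1.22 ± 0.29 and -1.18 ± 0.29 (adjusted p = 0.0214 and 0.0180, limma).

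GCD2, a subunit of the translation factor eIF2B through which GCN4 translation is controlled, read 6.86, 7.18 and 6.79 without oxygen, 6.43, 5.91 and 5.74 at 1% oxygen, and 6.13, 6.22 and 6.27 at 5%. The anaerobic arrays lay above all those at 1% and 5% oxygen. GCD2 fell at 1% and 5% oxygen, with differences of -0.92 ± 0.22 and -0.74 ± 0.22 (adjusted p = 0.0208 and 0.0360, limma).

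PCL5, a cyclin that marks the Gcn4 protein for degradation, read 8.92, 8.32 and 8.51 without oxygen and 9.53, 9.38 and 9.75 at 20%. It rose by 0.97 ± 0.26 at 20% oxygen (adjusted p = 0.0394, limma), with no overlap of arrays. The calls of these 3 regulators were also lost without single arrays. At 1% oxygen GCD2 and BAS1 were lost without anaerobic array 2 or 3 or 1% array 3, and BAS1 also without anaerobic array 1 (adjusted p up to 0.0999 and 0.0971). At 5% oxygen GCD2 was lost without any anaerobic or 5% array (up to 0.155) and BAS1 without array 1 or 2 of either group (up to 0.0784). PCL5 was kept in 4 of 12 such fits and lost without anaerobic array 2 or 3, any 20% array, 1% array 1, or 5% array 1 or 2 (up to 0.160).

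Of 23 other enzymes and carriers of amino acid synthesis, 21 were tested. Only ORT1 and BAT1 were called among them at 1% oxygen, ARG2 and ORT1 at 5%, and ORT1 at 20%. The rises were 4.76%, 9.52% and 4.76% of the 21, beside 5.27%, 5.32% and 3.27% of all genes. The fall of BAT1 at 1% oxygen was 4.76% of the 21, beside 11.2% of all genes. The list's median differences were -0.40, -0.21 and -0.07, and 14, 12 and 12 of the 21 lay below the anaerobic mean. Of all 5449 genes, 2724, 2405 and 2483 lay below it.

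No member, and no gene among the 5449, was called between successive oxygen levels. The share called was 0% for 5% against 1% oxygen and 0% for 20% against 5%, although limma gave an unadjusted p under 0.05 to 4 members (all higher) and 265 genes for the first step, and to 1 member, ARO1, and 149 genes for the second. From 1% to 5% oxygen 46 of 52 members had a higher mean, beside 3060 of the 5449 genes. The median over the members was 0.34, beside 0.05 over all genes. That median was 0.14 without 1% oxygen array 3. From 5% to 20% oxygen 40 of 52 had a higher mean, with a median of 0.13 beside 0.01. Without 20% oxygen array 1 that median was -0.01, so its sign rests on that array. ARG3 and ARG1 had the extreme differences of the second step, -0.86 ± 0.74 and 0.82 ± 0.58.

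The members were as variable between arrays as other genes. The median pooled within-group SD was 0.322 over the members and 0.323 over all genes. After ARG3, ILV6 and ARG1, the most variable were THR1 with an SD of 0.722 and CPA1 with 0.674. LYS9, LYS12, SER1 and GCN4 were the least variable, with SDs of 0.132 to 0.142.

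Further properties that the choice of genes did not use were set beside the differences. Coding length had a Spearman correlation across members with the difference of -0.28 at 1% oxygen, -0.35 at 5% and -0.25 at 20%, against -0.28, -0.19 and -0.05 over all genes. These are descriptions across genes, which are not independent replicates and share all arrays. Only 1 pair of members, HIS7 and ARO4, are neighbours on a chromosome in the reference gene table.

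**Figure D5:**
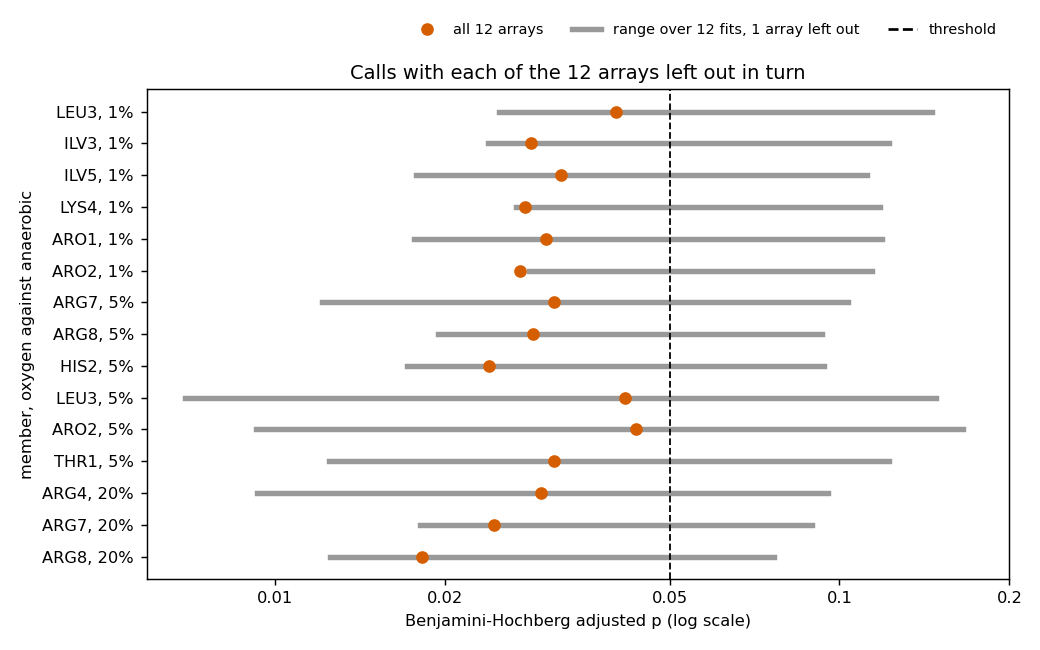
Benjamini-Hochberg adjusted p (horizontal axis, log scale) of the 15 calls of members in the 3 comparisons with the anaerobic group (vertical axis); points are the fit of all 12 arrays, grey bars span the 12 fits that leave out 1 array each, and the dashed line is 0.05. Every bar crosses the line, with upper ends from 0.0767 for ARG8 at 20% oxygen to 0.165 for ARO2 at 5%.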

How the data were processed

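The authors deposited log2 values of 12 arrays for 5716 probe sets, made with RMA per the submitters' processing notes; its version, its settings and the genome build were not given in the sources used here. The log2 scale was inferred from the range, 0.318 to 13.7. Differences of weak probe sets are compressed by RMA, and 3 arrays per group limit the precision. Scanner files were not used here. The platform annotation gave 1 gene for 5498 of them and none for 218, and the reference gene table, matched by all 5498, updated 12 symbols. For 47 genes with several probe sets, the one with the highest mean was taken, leaving 5449 genes. No member had several. TRP1, and ARG5,6 of the further enzymes, are not analysed here, nor are promoter motifs or sequences, and 1 further enzyme is not reported here.

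limma 3.58.1 in R 4.3.3 fitted a mean per group to all 12 arrays (8 residual and 4.11 prior degrees of freedom), with 5 comparisons and a moderated F test, and Benjamini-Hochberg adjustment over all 5449 genes. The fit was tested on simulated data. Full values are given for members called in any test. GCN4, LEU3, LYS14, the isozyme pairs, and in each pathway the member with the smallest F p and those with the highest and lowest mean level are always named. Enzymes and regulators of the further lists are named where called or, at 1% oxygen, at an end of their range. Stress and mating genes are named where called, and DDR2, AGA2 and FUS3 as the extremes against the called direction. Some members are named for completeness of their pathway. The members and lists were chosen with earlier results of these data known. Alternatives were quantile and median scaling, no dim genes, other treatments of probe sets, a trended or robust prior, the replicate number as a block, fitting only the groups compared, a 2-fold minimum, leaving out each array or 2 arrays, and, chosen after seeing the data, removing a trend on coding length. Same-numbered arrays had correlations of deviations from the group mean of -0.317 to 0.358, over 0.1 in 2 of 18 pairs. These values cannot decide whether the numbers pair the arrays, since the labels do not say what a number stands for.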

Additional observations from a re-analysis of the deposited data

How the results depend on the processing

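The precision is set by 3 arrays per group. None of the 15 calls against the anaerobic group changed sign in 345 refits. Many of those refits, such as with another prior or without an array of a group not compared, could not change the difference. None of the 17 calls, F test included, was kept with each array left out. The count of members called at 1% oxygen was 6, where 16.4% of all genes were called. It became 10 with a trended prior (16.4% of all genes) and 2 with only the groups compared (8.2%). With 10 arrays (without anaerobic array 1 and 1% oxygen array 3) it became 0, where 2.84% of all genes were called. It ranged from 0 to 9 with 1 array left out. The 0 came without anaerobic array 2 or 3 or 1% array 3, where 0.661%, 3.16% and 5.91% of all genes were called. At 5% oxygen the count of 6 became 15 with only the groups compared (28.8% of members, beside 29.4% of all genes). With a 2-fold minimum it became 3, where 10.7% of all genes were called. With 1 array left out it ranged from 0 to 12. The 12 came without 1% array 3, where 23.9% of all genes were called. The 0 came without anaerobic array 3 or 5% array 1, where 8.86% and 8.39% were called. At 20% oxygen the count of 3 ranged from 0 (without anaerobic array 1 or 3) to 4 (without 1% array 3). In those fits 5.8%, 2.86% and 13.9% of all genes were called, against 7.91% with all 12 arrays. In the F test the count of 2 became 4 with a trended prior, 1 with a 2-fold minimum, 0 with the length trend removed, and 0 to 6 with 1 array left out. Both steps between oxygen levels stayed at 0 members under every alternative run. With the replicate block the counts were 4, 1 and 3 members at 1%, 5% and 20% oxygen and 0 in the F test. Of all genes, 9.6%, 12.8%, 5.56% and 5.65% were then called. Whether the numbers pair the arrays is not known, and 1 of 12 arrays correlated best with an array of its own number. With 1 array left out, the member medians ranged from -0.54 to -0.12 at 1% oxygen, -0.07 to 0.06 at 5%, 0.11 to 0.22 at 20%, 0.14 to 0.45 for 5% against 1% and -0.01 to 0.19 for 20% against 5%, so that those at 5% and for the last step changed sign. The causes were not tested. Of 295 uncalled results of members, 28 were called under at least 1 of 24 alternatives.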
